A study of Arabidopsis thaliana with 12 samples.

Results

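Roots of wild-type Arabidopsis thaliana seedlings (Col) were compared after growth with polystyrene nanoplastics that carried amino groups (PS-NH2) or sulfonic acid groups (PS-SO3H). Both particles were given at 50 ug/ml. The comparison covered the 23506 genes that had a value in both root tables the authors deposited, of 24912 genes found in any of their 4 tables. These genes were not chosen by their response. For each gene the log2 fold change of PS-NH2 over root control was taken within one table, that of PS-SO3H over root control within the other, and the second was subtracted from the first. This value is called the particle difference below, and it is positive where PS-NH2 gave more RNA.

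The study sequenced total RNA from leaf and root of seedlings aged 10 days, raised on 1/2 MS medium without particles or with 1 of the 2 particles. It held 12 libraries in 6 groups of tissue and treatment, with 2 libraries in each group. The root control, root PS-NH2 and root PS-SO3H groups shared genotype, age and medium, and the same root control libraries served both particles. The labels do not say whether the 2 libraries of a group came from separate cultures, so the spread between them may be technical.

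Polystyrene is an inert polymer, and groups on the surface of a particle give it a charge in water. Amino groups tend to make it positive and sulfonic acid groups negative. A root meets particles at its epidermis, whose root hairs carry many of the transporters for nitrate, phosphate, sulfate and metals. Root genes for uptake, for building hairs and for defence compounds are therefore common readouts of a change in the root medium.

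Every level given here, and every fold change and adjusted p-value against control, was taken from the authors' deposited tables. A level is the authors' fitted mean for a group, in reads scaled by size factors and not divided by gene length. Each table holds its own fit, so a gene has one root control level beside PS-NH2 and another beside PS-SO3H, and both are given. The tables give group values and none for a library, so overlap between libraries and depth per library cannot be shown. The standard error (SE) of a particle difference was built from the authors' fold changes and p-values, and its median over all genes was 0.23 on the log2 scale. Adjusted p-values of the particle difference come from a 2-sided normal test with Benjamini-Hochberg adjustment over all 23506 genes, and genes below 0.05 are called. Sharing the control libraries makes this SE too large, which taken alone makes the calls conservative. If the spread between the 2 libraries of a group is technical, the SE leaves out variation between cultures. The calls then need not be conservative.

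In total 761 genes were called. PS-NH2 gave the higher level in 229 of them, 0.974 percent of the genes tested, and the lower level in 532, or 2.26 percent. Over all genes the median particle difference was 0.0034. Called genes had a median of 0.90 where PS-NH2 was higher and -0.84 where it was lower. The whole range ran from -3.53 to 3.16, and 296 called genes differed by at least 1 on the log2 scale. At an unadjusted p below 0.05 there were 2236 genes. A further 333 genes were listed only beside PS-NH2 and 312 only beside PS-SO3H, and these have no particle difference.

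**Figure D1:**
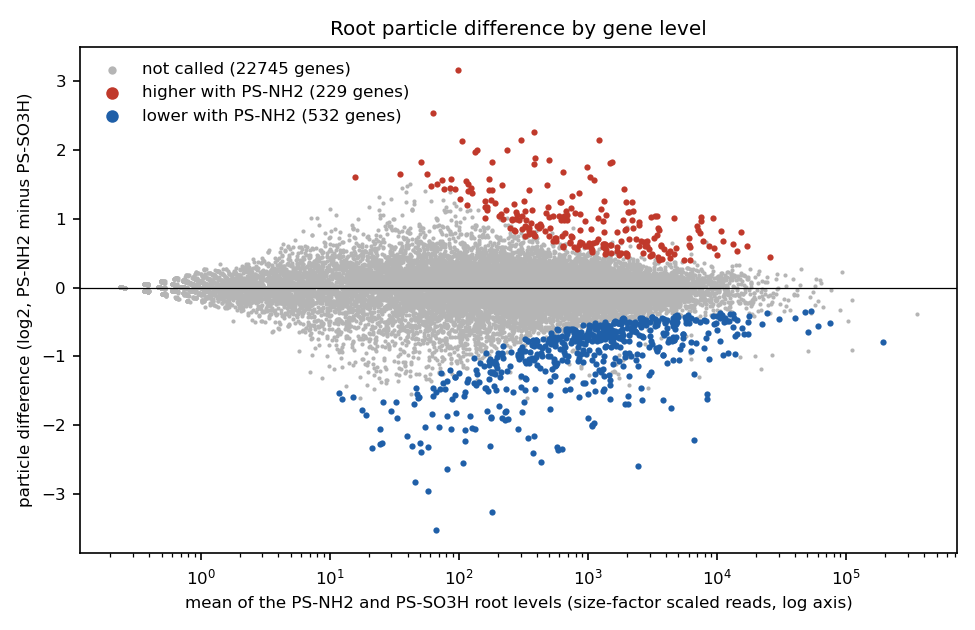
Each point is 1 of the 23506 genes in root. The horizontal axis is the mean of the PS-NH2 and PS-SO3H levels (log axis) and the vertical axis the particle difference on the log2 scale. The 229 called genes above 0 and the 532 below 0 are coloured, and the band of other genes narrows towards high levels.

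The samples carried the marks of root. All 30 root hair genes tested were higher in root control than in leaf control, and the median log2 ratio, root to leaf, was 6.59. All 38 photosynthesis genes tested were higher in leaf control, and the same median was -6.01. In root these 38 genes summed to 39806 in control and 45173 with PS-NH2 in one table, and to 38697 in control and 32810.0 with PS-SO3H in the other, against 2976866 in leaf control. None of the 38 was below a level of 10 in root control. Of the 8 seed storage genes listed, 4 were tested, 0 were called by the normal test and 0 were below an unadjusted p of 0.05, with summed levels of 23.8 in control and 31.4 with PS-NH2, against 10.1 in control and 11.97 with PS-SO3H.

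The gene lists were chosen with earlier results of these data known, so their shares of calls are given as a description. Most of the listed genes of sulfur limitation were higher with PS-NH2 than with PS-SO3H. Of the 17 genes listed, all of them tested, 12 were higher with PS-NH2 and 0 were lower, with a median particle difference of 0.98. Plants take up sulfate through SULTR transporters and reduce it through APS reductases (APR), and small LSU and SDI proteins accumulate when sulfur runs short. LSU1 (AT3G49580), a low-sulfur response protein, had deposited levels of 168 in root control and 643 with PS-NH2, against 152 in control and 121 with PS-SO3H. PS-NH2 stood far above control (authors' adjusted p = 9.59e-27), and PS-SO3H was not called against it (authors' adjusted p = 0.78). The particle difference of LSU1 was 2.27 ± 0.29 (log2, SE), a 4.81-fold gap with adjusted p = 2.51e-12.

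SDI1 (AT5G48850), which holds down aliphatic glucosinolate synthesis when sulfur is short, followed the same order. Its deposited levels were 120.0 and 509 in control and PS-NH2, and 104 and 99.7 in control and PS-SO3H. The particle difference was 2.15 ± 0.35, with adjusted p = 1.4e-07. Its relative AT1G04770 differed by 0.98 ± 0.20 (adjusted p = 9.16e-05). LSU3 (AT3G49570) and LSU2 (AT5G24660) differed by 1.82 ± 0.36 and 1.49 ± 0.24, with adjusted p of 3.88e-05 and 2.34e-07. The remaining LSU gene, LSU4, had deposited levels of 113 with PS-NH2 and 93.5 with PS-SO3H, and its particle difference of 0.21 was not called (95% interval -0.51 to 0.93).

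The deposited levels of SULTR2;1, SULTR4;2 and the 3 APS reductases lay above control with PS-NH2 and below it with PS-SO3H. SULTR2;1 (AT5G10180), a sulfate transporter of the vascular tissue, had deposited levels of 2002 in control and 2792 with PS-NH2, against 1936 in control and 1002 with PS-SO3H. It was above control with PS-NH2 and farther below it with PS-SO3H (authors' adjusted p of 0.000199 and 7.7e-14), and the particle difference was 1.43 ± 0.15 (adjusted p = 5.88e-17). APR3 (AT4G21990), an APS reductase, had deposited levels of 4365 and 6214 beside PS-NH2 and 4242 and 2997 beside PS-SO3H. APR3 differed by 1.01 ± 0.12, APR2 by 0.98 ± 0.14 and APR1 by 0.49 ± 0.13, with adjusted p of 1.57e-14, 3.2e-09 and 0.00484. SULTR4;2, which releases sulfate from the vacuole, differed by 0.98 ± 0.20 (adjusted p = 5.98e-05).

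GGCT2;1, an enzyme that breaks down glutathione, differed by 1.56 ± 0.43, and the serine hydroxymethyltransferase SHM7 by 0.81 ± 0.15, with adjusted p of 0.0119 and 8.61e-06. The main root sulfate uptake transporters were not called. SULTR1;2 had deposited levels of 9173 with PS-NH2 and 9419 with PS-SO3H, both under its control levels of 14795 and 14439, and its particle difference was -0.073 (95% interval -0.30 to 0.15). SULTR1;1 differed by 0.17 (-0.44 to 0.79), the regulator SLIM1 by -0.031 (-0.43 to 0.37) and BGLU28 by 0.91 (-0.11 to 1.93), none of them called. By the authors' deposited adjusted p, 11 of the 17 genes were higher and 1 was lower with PS-NH2 than control, against 0 higher and 5 lower with PS-SO3H. The shares of all genes so marked were 1.62 and 2.7 percent for PS-NH2 and 2.88 and 1.95 percent for PS-SO3H.

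**Figure D2:**
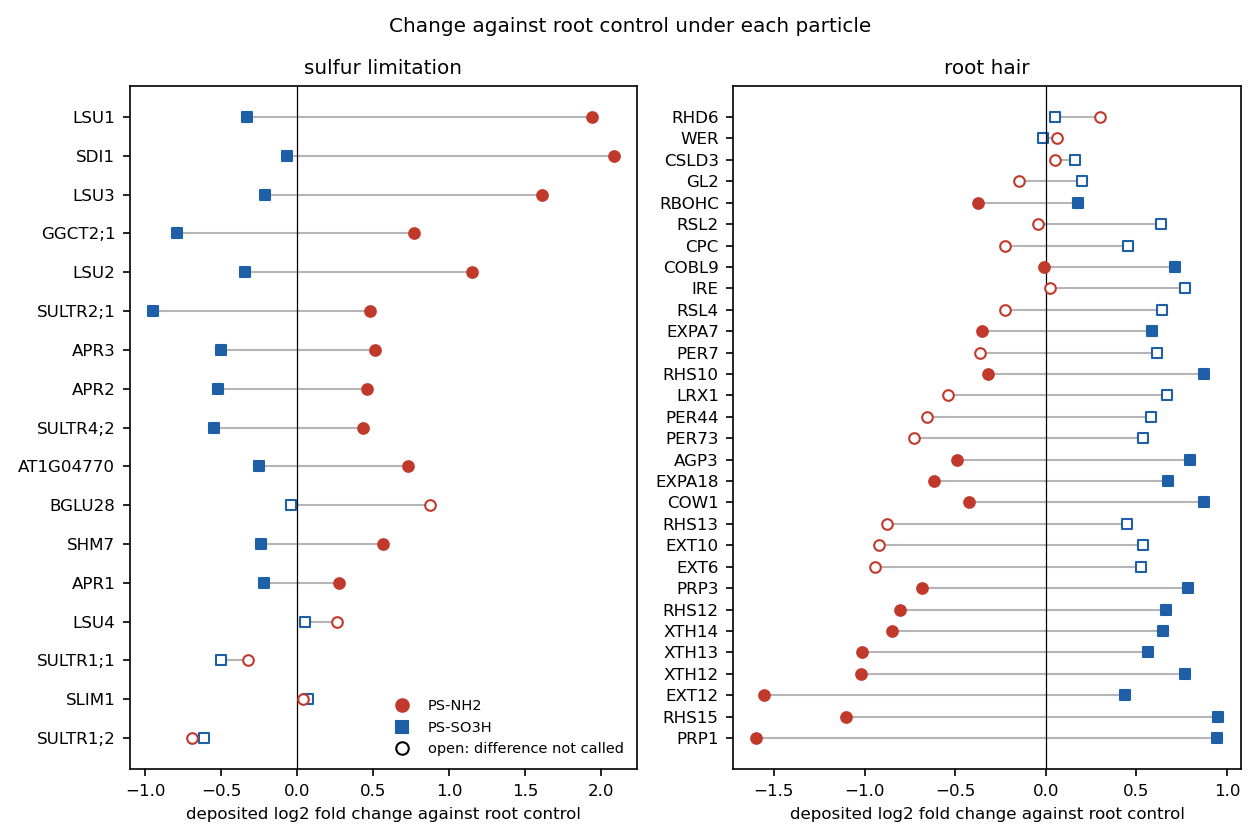
Deposited log2 fold changes against root control are plotted for each tested gene of the sulfur limitation list (left) and the root hair list (right). Circles stand for PS-NH2, squares for PS-SO3H, and filled marks for genes called in the particle difference. In the left panel filled circles lie above 0 and filled squares below it. In the right panel the filled circles lie below 0 and the filled squares above it.

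Root hairs are outgrowths of epidermal cells. Of 30 genes listed for them, 15 were lower with PS-NH2 and 0 were higher, with a median particle difference of -1.25. The median deposited log2 fold change of the 30 was -0.51 with PS-NH2 and 0.62 with PS-SO3H, on either side of control. Whole roots were sequenced, so fewer hair cells and less RNA per hair cell cannot be told apart. Deposited levels of the 30 genes summed to 25847 in control and 18179 with PS-NH2, against 28048 in control and 40846 with PS-SO3H. The 2 control fits were apart for some hair genes, at 1034 and 1332 for EXT12 and 343 and 391 for PRP1. For others they were close, as for RHS12 at 356 and 359.

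The called hair genes were mostly wall proteins and wall enzymes of the growing hair. PRP1 (AT1G54970), a proline-rich wall protein, had deposited levels of 343 in control and 113 with PS-NH2, against 391 in control and 753 with PS-SO3H. PS-NH2 lowered it against control (authors' adjusted p = 2.67e-09), the level with PS-SO3H was not called against control (authors' adjusted p = 0.0542), and the particle difference was -2.54 ± 0.39 (adjusted p = 3.04e-08). RHS12 (AT3G10710), an enzyme of the pectin methylesterase family, had deposited levels of 204 with PS-NH2 and 569 with PS-SO3H, around control levels of 356 and 359. Its particle difference was -1.47 ± 0.26 (adjusted p = 3.33e-06). The hair expansins EXPA18 and EXPA7, which loosen the wall, differed by -1.29 ± 0.25 and -0.94 ± 0.21, with adjusted p of 2.1e-05 and 0.000911.

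RHS10 (AT1G70460), a receptor-like kinase of the hair, differed by -1.19 ± 0.24 (adjusted p = 5.42e-05), and RHS15 (AT4G25220) by -2.05 ± 0.41 (adjusted p = 6.25e-05). The xyloglucan enzymes XTH12, XTH13 and XTH14 differed by -1.79, -1.58 and -1.50, with adjusted p of 7.92e-05, 0.0448 and 0.0147. The call of XTH13 was lost when 10 was added to each level. The oxidase RBOHC, needed for hair growth, had deposited levels of 1066 with PS-NH2 and 1530.4 with PS-SO3H, and a smaller particle difference of -0.55 ± 0.16 (adjusted p = 0.0176). COW1, COBL9, PRP3 and AGP3 differed by -1.29, -0.72, -1.47 and -1.28. The extensins EXT12 and EXT13 differed by -2.00 and -1.58, with adjusted p of 0.00746 and 0.0421.

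The regulators that set hair fate were not called, though the 95% intervals of CPC and of the growth regulator RSL4 lay below 0. A contrast between regulators and wall genes was not tested. RHD6, which starts the hair programme, had deposited levels of 345 with PS-NH2 and 282 with PS-SO3H and a particle difference of 0.24 (95% interval -0.24 to 0.73). The fate regulators WER, GL2 and CPC differed by 0.073 (-0.53 to 0.68), -0.35 (-0.83 to 0.14) and -0.68 (-1.25 to -0.12). RSL4, which drives hair growth, differed by -0.87 (-1.51 to -0.23). Of the 18 marker genes of other root cell types, 0 were called by the normal test and 2 were below an unadjusted p of 0.05, with a median of 0.16 and a range of -0.33 to 0.85. With 0.974 percent of all genes called higher and 2.26 percent lower, 0 calls of 18 says little about these cell types.

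The extensins, glycoproteins of the wall, were taken from the reference annotation after values had been seen and are given as a description. Of 48 annotated extensins or extensin-like genes, 10 were lower and 2 higher with PS-NH2, and their median particle difference was -0.48. AT1G26250, a proline-rich extensin-like gene picked for its size, had deposited levels of 2372 in control and 619 with PS-NH2, against 2695 in control and 4241 with PS-SO3H. Its 2 control fits were apart as well. Wall-loosening genes outside the hair list split. Of 26 listed, 6 were higher with PS-NH2 and 3 lower, with a median of -0.11.

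Among the higher ones was EXPA1 (AT1G69530), an expansin, with deposited levels of 2225 in control and 2816 with PS-NH2, against 2158 in control and 1148 with PS-SO3H. The gap lay mostly on the PS-SO3H side, and the particle difference was 1.25 ± 0.14 (adjusted p = 4.99e-15). EXPA15 differed by 1.05 ± 0.13 (adjusted p = 4.1e-12). The xyloglucan enzymes XTH15 and XTH24 went the other way, at -1.18 ± 0.16 and -0.76 ± 0.12, with adjusted p of 3.57e-11 and 2.17e-07. XTH22, a touch-induced gene, was the 1 called member of 9 touch and calmodulin-like genes, at 1.26 ± 0.39 (adjusted p = 0.0385).

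**Figure D3:**
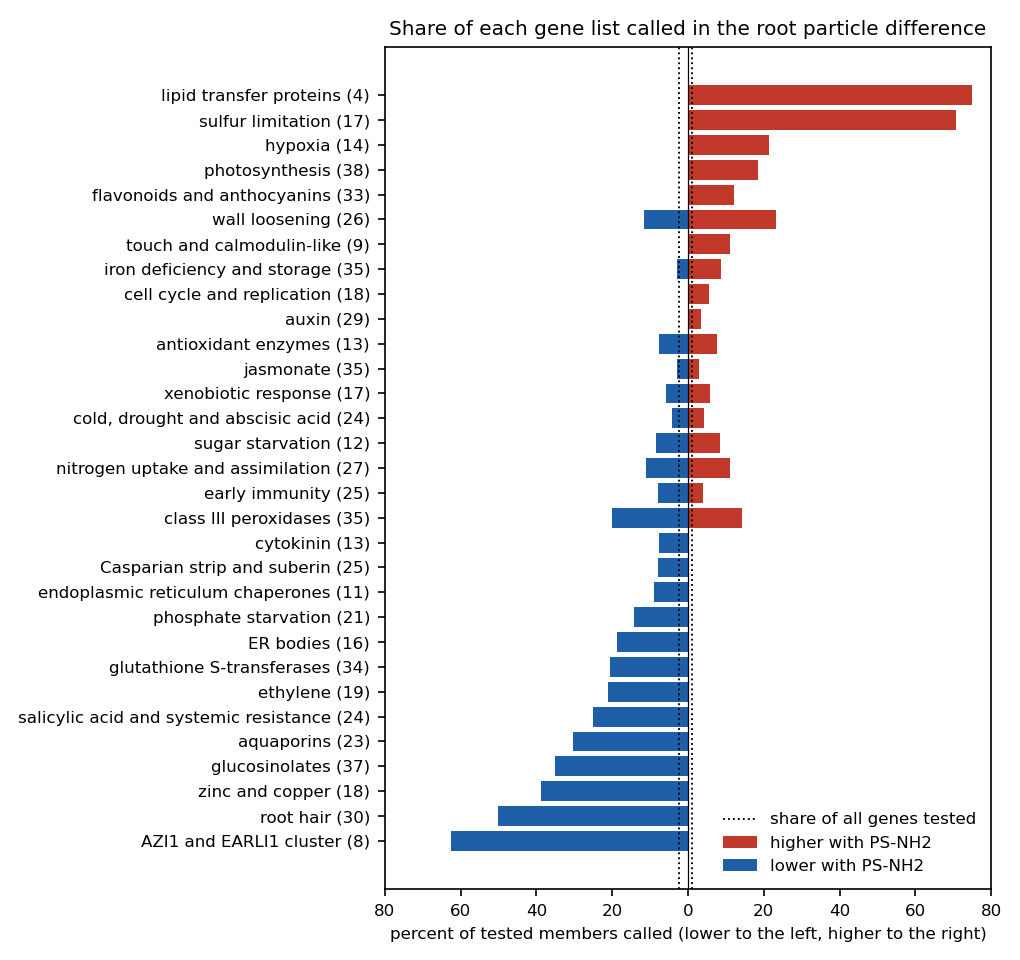
Bars give the percent of tested members called in the root particle difference, to the right where PS-NH2 was higher and to the left where it was lower, for each list with at least 1 call (tested members in brackets). Dotted lines mark the shares of all genes tested, 0.974 percent higher and 2.26 percent lower. Lipid transfer proteins and sulfur limitation lie farthest right, the AZI1 and EARLI1 cluster and root hair genes farthest left. The lists were chosen with earlier results of these data known, so distance from the dotted lines is a description.

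Lipid transfer proteins are small secreted proteins that bind lipids. Of 4 lipid transfer proteins, 3 were higher and 0 lower, with a median of 1.71. LTP3 (AT5G59320) had deposited levels of 709 in control and 1994 with PS-NH2, against 671 in control and 428 with PS-SO3H. LTP3 was above control with PS-NH2 and below it with PS-SO3H, and the particle difference was 2.14 ± 0.19 (adjusted p = 3.84e-25). LTP2 (AT2G38530) had levels of 2341 with PS-NH2 and 638 with PS-SO3H in the deposited tables, and differed by 1.81 ± 0.17 (adjusted p = 8.24e-23). LTP4 was low, at 27.1 with PS-NH2 and 4.2 with PS-SO3H, and differed by 1.60 ± 0.50 (adjusted p = 0.0448), a call that was lost when 10 was added to each level. LTP1 differed by 0.55 and was not called (95% interval -0.059 to 1.15).

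KCS6 (AT1G68530), which lengthens the fatty acids of wax, had deposited levels of 166 in control and 385 with PS-NH2, against 150.4 in control and 87.7 with PS-SO3H. Its particle difference was 2.00 ± 0.31 (adjusted p = 3.55e-08). A list of 25 cuticle and wax genes was drawn up after this value had been seen, and is given without a test of the list. Of the 25, 7 were higher with PS-NH2 and 1 was lower, with a median of 0.26. The higher ones held the wax exporters ABCG11 and ABCG12, at 1.42 and 1.22, and the lipid transfer protein LTPG1, at 1.07. The lower one was CER4, a fatty acid reductase, at -1.82.

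Photosynthesis genes serve here as markers of green tissue. Of 38, 7 were higher with PS-NH2 and 0 lower, 32 had a positive difference, and the median was 0.31. LHCB1.3 (AT1G29930), a light-harvesting protein, had deposited levels of 6444 in control and 10222 with PS-NH2, against 6259.7 in control and 4869 with PS-SO3H. Its particle difference was 1.03 ± 0.12 (adjusted p = 1.05e-15). LHCB2.2, LHCA2 and the Rubisco subunit RBCS1A differed by 1.18, 0.55 and 0.62, with adjusted p of 0.00981, 0.0121 and 0.00522. The LHCB1 and LHCB2 genes are close copies, so their reads may have been split. The part of green tissue in the lipid transfer, wax and sulfur results was not tested.

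Nitrogen genes did not move together. Of 27 tested, 3 were higher with PS-NH2 and 3 lower, with a median of 0.017. These are 11.1 percent each way, against 0.974 percent higher and 2.26 percent lower of all genes. NRT2.1 (AT1G08090), the main high-affinity nitrate transporter of the root, had deposited levels of 717 in control and 2427 with PS-NH2, against 677 in control and 647 with PS-SO3H. With PS-SO3H its level was close to the control fit, and the particle difference was 1.83 ± 0.21, a 3.54-fold gap (adjusted p = 5.32e-15). The nitrite reductase NIR1 and UPM1, an enzyme of the cofactor that nitrite and sulfite reductases need, differed by 0.64 ± 0.12 and 0.61 ± 0.12, with adjusted p of 1.6e-05 and 7.55e-05. For both genes PS-NH2 lay near control and PS-SO3H below, with deposited levels of 16426 and 10278 for NIR1.

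Lower with PS-NH2 were the glutamine synthetase gene GLN1;2, the vacuolar nitrate exchanger CLCA and AT1G13300, annotated as a myb-like transcription factor. They differed by -0.56 ± 0.14, -0.50 ± 0.14 and -1.11 ± 0.14, with adjusted p of 0.00492, 0.0101 and 4.64e-12. AT1G13300 had deposited levels of 2474 in control and 997 with PS-NH2, against 2424 and 2106 beside PS-SO3H. Phosphate genes gave 3 lower and 0 higher of 21 tested, with a median of -0.38.

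PHT1;1 (AT5G43350), a main phosphate uptake transporter, had deposited levels of 17746 in control and 9516 with PS-NH2, against 17404 in control and 18165 with PS-SO3H. Its particle difference was -0.96 ± 0.15 (adjusted p = 1.6e-08). PHT1;2 and PHO1;H1, a phosphate exporter relative, differed by -1.30 ± 0.29 and -0.77 ± 0.20, with adjusted p of 0.000815 and 0.00777. PHT1;1 and PHT1;2 are close copies, and reads could be split between them in ways not given in the sources used here.

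Of 18 zinc and copper genes, 7 were lower with PS-NH2 and 0 higher, with a median of -0.36. COPT2 (AT3G46900), a copper uptake transporter, had deposited levels of 2410.5 in control and 1548 with PS-NH2, against 2374 in control and 3159.8 with PS-SO3H. It lay under control with PS-NH2 and over it with PS-SO3H, and the particle difference was -1.05 ± 0.17 (adjusted p = 1.4e-07). FRO4, a copper reductase, differed by -1.41 ± 0.28, and the zinc transporter family members ZIP2 and ZIP3 by -0.73 ± 0.12 and -0.91 ± 0.19. Their adjusted p-values were 7.6e-05, 5.44e-07 and 0.000224.

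Iron genes gave 3 higher and 1 lower of 35, with a median of 0.18. These are 8.57 and 2.86 percent, against 0.974 and 2.26 percent of all genes. AT3G12900, annotated as an iron-dependent oxygenase, had deposited levels of 35.0 in control and 113 with PS-NH2, against 22.8 in control and 12.7 with PS-SO3H. It differed by 2.54 ± 0.48 (adjusted p = 2.19e-05). CYP82C4 (AT4G31940), an enzyme of secreted iron-binding coumarins, had deposited levels of 1603 with PS-NH2 and 483 with PS-SO3H, and differed by 1.61 ± 0.39 (adjusted p = 0.00271). The ferritin FER1, an iron store, differed by 0.72 ± 0.16, and the coumarin enzyme F6'H1 by -0.53 ± 0.15, with adjusted p of 0.000733 and 0.0182.

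The iron reductase FRO2 and the iron transporter IRT1 differed by 0.88 and 0.65 and were not called, with 95% intervals of 0.25 to 1.51 and -0.16 to 1.46. Aquaporins, the water channels, gave 7 lower with PS-NH2 and 0 higher of 23, with a median of -0.29. TIP2;1 (AT3G16240), a channel of the vacuole membrane, had deposited levels of 5147 in control and 4373 with PS-NH2, against 5058 in control and 8176 with PS-SO3H. It differed by -0.93 ± 0.14 (adjusted p = 3.2e-09). The plasma membrane channels PIP2;4 and PIP1;5 differed by -1.62 ± 0.28 and -0.90 ± 0.16, and the vacuolar TIP1;1 by -0.68 ± 0.14. Adjusted p-values were 1.92e-06, 2.2e-06 and 0.000158.

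Glucosinolates are sulfur-containing defence compounds. Of 37 glucosinolate genes tested, 13 were lower and 0 higher, with a median of -0.35. BCAT4 (AT3G19710), the first enzyme of methionine chain elongation, had deposited levels of 4939 in control and 4157 with PS-NH2, against 4843 in control and 6779.8 with PS-SO3H. Most of its gap came from the higher level with PS-SO3H, and the particle difference was -0.73 ± 0.13 (adjusted p = 5.74e-06). The chain elongation synthases MAM1 and MAM3 differed by -0.62 ± 0.14 and -0.48 ± 0.12, and GSTU20 by -0.54 ± 0.13. Adjusted p-values were 0.00134, 0.00241 and 0.00159.

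Both branches were among the called genes, with CYP83A1 of the aliphatic branch at -0.46 and CYP79B2 and CYP83B1 of the indole branch at -0.45 and -0.42. The aliphatic regulator MYB28 and the indole regulator MYB34 differed by -0.017 (95% interval -0.37 to 0.33) and -0.041 (-0.29 to 0.21), and neither was called. Of 10 camalexin and tryptophan genes tested, 0 were called by the normal test and 2 were below an unadjusted p of 0.05, with a range of -0.60 to 0.31. At the shares of all genes called, 0.974 percent higher and 2.26 percent lower, 0 calls of 10 says little about this list.

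ER bodies are spindle-shaped stores of beta-glucosidase in root and seedling cells. Of 16 ER body genes, 3 were lower with PS-NH2 and 0 higher, with a median of -0.29. NAI2 (AT3G15950), which forms the bodies, had deposited levels of 17703 in control and 18395 with PS-NH2, against 17321 in control and 25976 with PS-SO3H. It stayed near control with PS-NH2, and differed by -0.53 ± 0.13 (adjusted p = 0.00168). AT3G16420, annotated as PYK10-binding protein 1, and GLL23 differed by -0.52 ± 0.13 and -0.51 ± 0.15, with adjusted p of 0.00521 and 0.0294. By the authors' deposited adjusted p, 7 of the 16 genes were higher than control with PS-NH2 and 14 with PS-SO3H.

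Class III peroxidases, enzymes of the wall that can stiffen or loosen it, split into both directions. Of 35, 5 were higher with PS-NH2 and 7 lower, with a median of -0.36. PER25 (AT2G41480) had deposited levels of 1059 in control and 1662 with PS-NH2, against 1017 in control and 543 with PS-SO3H, and differed by 1.56 ± 0.19 (adjusted p = 1.14e-13). PER15 and PER49 were near control with PS-NH2 and lower with PS-SO3H, and differed by 1.04 ± 0.13 and 0.95 ± 0.13, with adjusted p of 3.55e-12 and 1.66e-10. PRX34, with levels of 13489 and 21182 under PS-NH2 and PS-SO3H in the deposited tables, differed by -0.68 ± 0.14 (adjusted p = 5.73e-05).

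The AZI1 and EARLI1 genes encode wall-linked lipid transfer-like proteins and lie beside each other, and AZI1 acts in systemic immunity. Of 8 listed, 5 were lower with PS-NH2 and 0 higher, with a median of -1.05. AZI1 (AT4G12470) had deposited levels of 4105 in control and 437 with PS-NH2, against 4005 in control and 1726 with PS-SO3H. Both particles lowered it, PS-NH2 by far the more, and the particle difference was -2.02 ± 0.15 (adjusted p = 5.59e-36). EARLI1 (AT4G12480) had deposited levels of 8302 and 2036 beside PS-NH2, and 8126 and 6697 beside PS-SO3H, and differed by -1.75 ± 0.14 (adjusted p = 2.14e-34). The neighbours AT4G12510 and AT4G12520 differed by -1.10 and -0.72; they are near-identical copies, so reads may have been split between them.

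Of 24 genes of salicylic acid and systemic resistance, 6 were lower with PS-NH2 and 0 higher, with a median of -0.57. Their levels in root were low for the best-known members. PR2 (AT3G57260), a beta-1,3-glucanase, had deposited levels of 3.03 in control and 2.47 with PS-NH2, against 11.8 in control and 46.5 with PS-SO3H. PR5 (AT1G75040), a thaumatin-like protein, had 3.57 with PS-NH2 and 44.9 with PS-SO3H in the deposited tables. The 2 control fits of each of these genes were themselves far apart. PR2 and PR5 differed by -2.28 ± 0.46 and -2.05 ± 0.47, with adjusted p of 9.28e-05 and 0.00117. The salicylic acid hydroxylase DMR6 and ALD1, which makes the pipecolic acid precursor, differed by -0.65 ± 0.17 and -1.30 ± 0.40, with adjusted p of 0.00522 and 0.0358.

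PR1 was at 1.16 with PS-NH2 and 1.13 with PS-SO3H in the deposited tables, and no difference was detectable at this level (95% interval -0.54 to 0.57). Early immunity genes gave 1 higher and 2 lower of 25, or 4 and 8 percent, against 0.974 and 2.26 percent of all genes. NHL10 (AT2G35980), an early immune marker, had deposited levels of 155 and 87.8 beside PS-NH2, and 162 and 340.0 beside PS-SO3H. It differed by -1.89 ± 0.32 (adjusted p = 5.44e-07), and MLO12 by -0.99 ± 0.22 (adjusted p = 0.000813). The superoxide-forming oxidase RBOHD was higher with PS-NH2 instead, at 0.60 ± 0.13 (adjusted p = 0.000424).

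Ethylene genes gave 4 lower with PS-NH2 and 0 higher of 19, or 21.1 and 0 percent, against 2.26 and 0.974 percent of all genes. Their median was near 0, at -0.028, and the range ran from -1.26 to 0.92. EBF2 (AT5G25350), which targets the ethylene factor EIN3 for breakdown, had deposited levels of 2845 in control and 1790.0 with PS-NH2, against 2790.0 in control and 3450.0 with PS-SO3H. It differed by -0.98 ± 0.13 (adjusted p = 1.97e-11). The receptor ETR2, AT1G62380, annotated as ACC oxidase 2, and ERF-1 differed by -1.26, -0.72 and -0.71, with adjusted p of 0.000601, 5.37e-07 and 0.0013. Jasmonate genes gave 1 call each way of 35, the vegetative storage protein VSP2 at 0.96 ± 0.11 and PR4 at -0.51 ± 0.15, with adjusted p of 1.18e-14 and 0.0288. That is 2.86 percent each way, against 0.974 percent higher and 2.26 percent lower of all genes.

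Glutathione S-transferases, which join glutathione to reactive compounds, gave 7 lower and 0 higher of 34, with a median of -0.13. GSTF2 (AT4G02520) had deposited levels of 10154 in control and 4336 with PS-NH2, against 9955 in control and 12427 with PS-SO3H. PS-NH2 brought it under control and PS-SO3H above it, for a particle difference of -1.55 ± 0.11 (adjusted p = 4.59e-38). GSTU26 and GSTF14 differed by -0.97 ± 0.16 and -0.76 ± 0.14, with adjusted p of 7.62e-07 and 2.01e-05. GSTU20, GSTF9, GSTF10 and GSTF11 count under both the transferases and the glucosinolate genes.

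The stress lists outside these groups showed few calls. Of all genes tested, 0.974 percent were called higher and 2.26 percent lower. At those shares a list this short could hold 0 calls, so 0 calls says little about it. By the normal test, heat shock genes had 0 calls of 18, with 0 below an unadjusted p of 0.05 and a median of -0.0038, although 5 of the 18 were lower than control with each particle in the authors' deposited tables. By the same test, genes of reactive oxygen and retrograde signalling had 0 calls of 16, with 2 below an unadjusted p of 0.05. Clock genes had 0 calls of 14 by this test, with 0 below that p. Xenobiotic response genes gave 1 call each way of 17, the alkenal reductase AER at 0.84 ± 0.19 and CYP81D11 at -0.52 ± 0.16, with adjusted p of 0.000894 and 0.0375. Antioxidant enzymes also gave 1 call each way of 13, AT1G20620, annotated as catalase 3, at 0.44 ± 0.11, and the superoxide dismutase FSD1 at -0.36 ± 0.11.

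Hypoxia genes gave 3 higher with PS-NH2 and 0 lower of 14, with a median of 0.57. SUS1 (AT5G20830), a sucrose synthase, had deposited levels of 1829 in control and 2924 with PS-NH2, against 1773 in control and 1553 with PS-SO3H. SUS1, the transcription factor LBD41 and the pyruvate decarboxylase PDC1 differed by 0.87 ± 0.14, 1.00 ± 0.22 and 0.80 ± 0.21, with adjusted p of 4.44e-07, 0.000427 and 0.006. The alcohol dehydrogenase ADH1 differed by 0.79 and was not called (95% interval 0.11 to 1.47).

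Flavonoid genes include the enzymes that make anthocyanin pigments. Of 33 flavonoid genes tested, 4 were higher and 0 lower, with a median of 0.067. All 4 act late in the anthocyanin branch or are annotated as glycosyltransferases. DFR (AT5G42800), dihydroflavonol reductase, had deposited levels of 28.6 in control and 227 with PS-NH2, against 24.3 in control and 48.4 with PS-SO3H. PS-NH2 stood above control (authors' adjusted p = 3.79e-23). The level with PS-SO3H, also above its control fit, was not called against it (authors' adjusted p = 0.118). DFR differed by 2.00 ± 0.47 (adjusted p = 0.00137). LDOX, UGT79B1 and AT4G14090 differed by 1.45 ± 0.45, 1.40 ± 0.43 and 1.13 ± 0.33, with adjusted p of 0.0403, 0.0385 and 0.0249. Chalcone synthase, CHS, at the head of the pathway, differed by -0.24 and was not called (95% interval -0.68 to 0.21).

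Single calls came from several other lists. With 0.974 percent of all genes called higher and 2.26 percent lower, 1 call in a list of this length says little about the list. The D-type cyclin CYCD3;1 was higher with PS-NH2 at 0.60 ± 0.17, 1 of 18 cell cycle genes, and the auxin-conjugating enzyme GH3.5 at 0.75 ± 0.19, 1 of 29 auxin genes. The cytokinin response regulator ARR8 was lower at -0.63 ± 0.16, 1 of 13. Adjusted p-values were 0.0151, 0.0032 and 0.00381. Of 25 Casparian strip and suberin genes, 2 were lower, CASP4, which builds the strip, at -0.86 ± 0.25 and the lignin peroxidase PER64 at -0.52 ± 0.16. RD22 (AT5G25610), a dehydration-responsive gene, was the higher and COR47, a dehydrin, the lower of 2 calls among 24 cold, drought and abscisic acid genes, at 1.88 ± 0.27 and -0.47 ± 0.13. Sugar starvation genes gave BGLU30 at 1.79 ± 0.26 and TPS9 at -0.47 ± 0.14, of 12.

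The widest particle difference of the 23506 genes was that of BIP3. BIP3 (AT1G09080), an endoplasmic reticulum chaperone made under protein folding stress, had deposited levels of 2.66 in control and 3.35 with PS-NH2, against 8.84 in control and 128 with PS-SO3H. The gap lay on the PS-SO3H side, and the 2 control fits were far apart at these low levels. The particle difference was -3.53 ± 0.45 (adjusted p = 1.87e-12). No other of the 11 endoplasmic reticulum chaperone genes was called, and their median was -0.20.

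CYP710A4 (AT2G28860), of a family of sterol desaturases, had deposited levels of 16.8 with PS-NH2 and 145 with PS-SO3H, with control at 25.7 and 35.7, and differed by -2.64 ± 0.46 (adjusted p = 2.36e-06). The sucrose exporters SWEET11 and SWEET12 differed alike. SWEET12 (AT5G23660) had deposited levels of 271 in control and 136 with PS-NH2, against 282 in control and 634 with PS-SO3H. SWEET12 differed by -2.16 ± 0.30 and SWEET11 by -2.32 ± 0.48, with adjusted p of 1.87e-10 and 0.000161. SWEET11 had control fits of 242 and 363, a wider gap than those of SWEET12.

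Others at the low end were the xyloglucan enzyme XTH26 at -2.40 ± 0.49, the cellulose synthase-like ATCSLB05 at -2.19 ± 0.33, the squalene monooxygenase SQP2 at -2.05 ± 0.34, CYP718 at -2.04 ± 0.37 and the ethylene response factor family member RAP2.6 at -2.05 ± 0.40. RAP2.6 and CYP718 owed most of the gap to PS-NH2, with deposited log2 fold changes of -1.80 and -1.58, against 0.25 and 0.46 with PS-SO3H. SQP2 owed more of it to PS-SO3H, at 1.40 against -0.65. At the high end stood the cell wall invertase CWINV5 at 2.12 ± 0.41 and the gibberellin-regulated GASA6 at 1.97 ± 0.36. GASA6 had deposited levels of 127 and 216 beside PS-NH2, and 114 and 49.5 beside PS-SO3H, above control with one and below with the other.

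Among genes without a symbol, picked after their values were seen, AT4G32950 had the highest particle difference of all genes tested. It is annotated as a protein phosphatase 2C and had deposited levels of 27.8 in control and 185 with PS-NH2, against 16.4 in control and 12.2 with PS-SO3H. The 2 control fits were far apart for this gene too. It differed by 3.16 ± 0.48 (adjusted p = 9.7e-09). AT3G54040, annotated as a PAR1 protein, was abundant and had the smallest p of the whole comparison. Its deposited levels were 7905 in control and 2359 with PS-NH2, against 7779 in control and 10817 with PS-SO3H, and it differed by -2.22 ± 0.14 (adjusted p = 6.74e-53). AT4G15990, with no known product in the annotation, differed by -3.26 ± 0.36 (adjusted p = 9.7e-17).

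**Figure D4:**
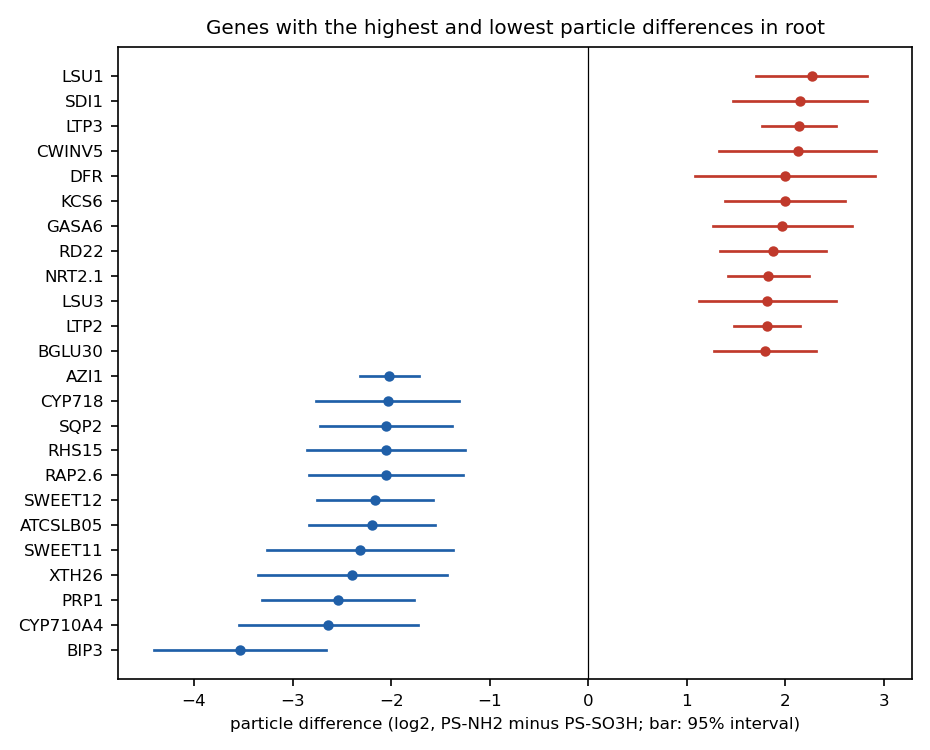
Points give the particle difference (log2, PS-NH2 minus PS-SO3H) of the 12 highest and 12 lowest called genes with a symbol and a mean treated level of at least 50, and bars the 95% interval. BIP3 lies lowest at -3.53 and LSU1 highest at 2.27, and no interval crosses 0.

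The leaf libraries gave the same contrast in 23150 genes, of which 135 were higher with PS-NH2, 0.583 percent, and 599 lower, 2.59 percent. To see where root departed from leaf, the leaf particle difference was subtracted from the root one in the 22373 genes with both. Root minus leaf was positive and called in 266 genes, 1.19 percent, and negative and called in 92, 0.411 percent. The root and leaf tables were normalized apart by the authors.

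Of the sulfur limitation genes, 12 of 17 were higher with PS-NH2 in root, while in leaf 0 of 17 were higher and 1 lower with a median of -0.25. The test of the difference between tissues called 9 of the 17, all with the higher value in root. LSU1 differed by 2.27 in root and -0.93 in leaf, a difference between tissues of 3.201 ± 0.55 (adjusted p = 3.69e-06). SDI1 differed between tissues by 2.39 ± 0.47 and APR3 by 1.51 ± 0.26, with adjusted p of 0.000137 and 4.67e-06.

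Salicylic acid genes showed the contrast in both tissues, with 6 of 24 lower in root and 20 of 24 lower in leaf. Root minus leaf was positive and called in 7 of them, so for those the leaf value was the more negative. Hypoxia genes had 3 of 14 higher in root and 5 of 14 lower in leaf, and 6 called between tissues. LBD41 was 1.00 in root and -1.07 in leaf, a difference of 2.07 ± 0.35 (adjusted p = 2.7e-06). Photosynthesis genes, 7 higher in root, were lower in leaf in 8 of 38, and 9 were called between tissues.

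Root hair genes gave 0 calls of 30 by the normal test in leaf, where their levels summed to 2001 in control, and only 1, COW1, was called between tissues at -2.03 ± 0.56 (adjusted p = 0.0239). The other 29 hair genes were not called between tissues. Aquaporins gave 7 lower of 23 in root and 2 higher of 23 in leaf, and 5 were called between tissues. TIP2;1 was -0.93 in root and 0.73 in leaf, a difference of -1.66 ± 0.23 (adjusted p = 1.89e-09).

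The widest single gaps between tissues had either side as their source. RALFL32 (AT4G14010), which encodes a RALF signalling peptide, was -0.16 in root and -4.61 in leaf, a difference of 4.45 ± 0.63 (adjusted p = 4.09e-09). The ribonuclease RNS1 and the fatty acid desaturase family member SAD6 were also lower with PS-NH2 in leaf, and their differences between tissues were 3.13 ± 0.75 and 3.09 ± 0.39. BGLU30 had opposite signs, 1.79 in root and -1.50 in leaf, for a difference of 3.29 ± 0.76 (adjusted p = 0.00245).

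The isocitrate lyase gene ICL, of the glyoxylate cycle, was higher with PS-NH2 in both tissues, 0.82 in root and 3.54 in leaf, a difference of -2.72 ± 0.61 (adjusted p = 0.00198). CYP710A4, FLA13, an arabinogalactan protein, SWEET12 and SWEET11 took their gap from root, with differences between tissues of -2.60, -2.37, -2.29 and -2.18. In leaf the particle differences of both exporters were 0.13 for SWEET12 and -0.14 for SWEET11.

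**Figure D5:**
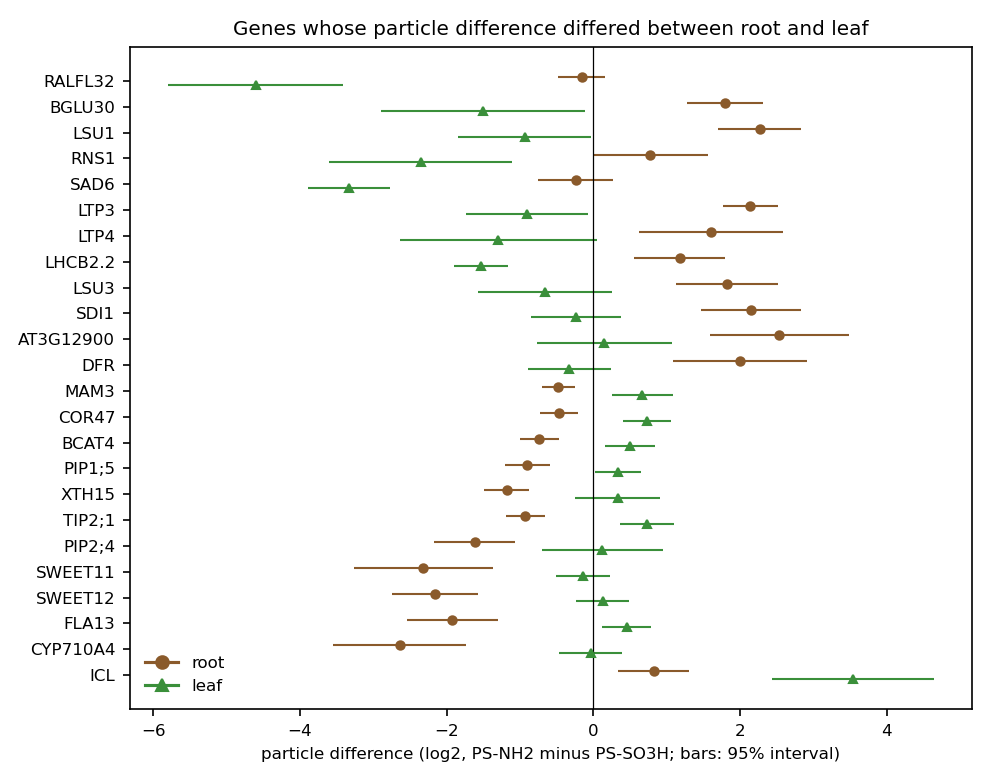
Particle differences (log2, PS-NH2 minus PS-SO3H) in root (circles) and leaf (triangles) are plotted with 95% intervals for the 12 highest and 12 lowest named genes called between tissues. LSU1, BGLU30 and LTP3 lie above 0 in root and below 0 in leaf, while SWEET11 and CYP710A4 lie below 0 in root and near 0 in leaf.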

How the data were processed

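RNA from root and leaf was reverse transcribed with random primers and sequenced on an Illumina machine, per the labels' protocols. The submitters' processing notes name genome build TAIR10. The series text names the aligner SOAP2 but describes a library of small RNA, and whether its steps hold for these tables is not stated. Not given in the sources used here are the counting program, the use of strand and the handling of multiply mapped reads.

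The 4 deposited tables each set 1 particle against control in 1 tissue and, per the labels on them, come from a DESeq2 method run by the authors. The deposited level of a group is a signal, in reads divided by size factors. The deposited log2 fold change equals the log2 ratio of the 2 levels to within 4.87e-08 and shrinks towards 0 where levels are low. The deposited p-value and adjusted p are the authors'. The tables hold no column for a library, so depth is unknown.

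An SE was derived for each fold change from the normal deviate that matches the deposited p-value. Particle differences subtract 1 deposited fold change from another, squared SEs are added, and tissue differences use all 4. The 2-sided normal p was adjusted by the Benjamini-Hochberg method, and intervals are 95 percent. Scripts used Python 3.11.15, numpy 2.4.6, pandas 2.3.3 and scipy 1.17.1 and were tested on simulated data.

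The 37 gene lists, with 765 genes of which 754 were tested, and the genes described were chosen with earlier results of these data known. Genes were named by rule: the 12 highest and 12 lowest called differences with a symbol and a mean treated level of at least 50, up to 4 called members per list, and the 5 highest and 5 lowest called tissue differences with the same level. Other list members are examples chosen after their values were seen. Symbols came from the deposited tables and the RefSeq TAIR10.1 annotation, which held 23313 of the 23506 loci. No coordinates or sequences are given, because the builds differ. Alternatives changed the SE, the centring, the form of the ratio, the filter, a pseudocount, the agreement of control fits and the threshold.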

Additional observations from a re-analysis of the deposited data

Results flagged for a closer look

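The genes below had particle differences that differed between root and leaf by the test of that difference (root minus leaf, log2, Benjamini-Hochberg adjusted p below 0.05). Each value is the root particle difference minus the leaf one. No explanation was tested.

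Among sulfur and nitrogen genes the value was 3.201 for LSU1, 2.48 for LSU3, 2.39 for SDI1, 1.195 for SULTR2;1, 1.51 for APR3 and 1.23 for APR2. It was 0.90 for NIR1 and 0.99 for UPM1. For the iron-list gene AT3G12900 it was 2.39. All of these were more positive in root.

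Lipid and surface genes were also more positive in root, with 3.04 for LTP3, 2.90 for LTP4, 1.90 for LTP2, 2.13 for KCS6 and 3.09 for SAD6. The photosynthesis genes LHCB2.2 and LHCB1.3 had 2.71 and 1.14. Stress and sugar genes in the same direction were RD22 at 2.02, BGLU30 at 3.29, RNS1 at 3.13, LBD41 at 2.07, SUS1 at 1.45, DFR at 2.33, AER at 1.04, RBOHD at 1.07, PR4 at 1.57, PRX34 at 1.05, EXPA1 at 1.21 and RALFL32 at 4.45. For SAD6, PR4, PRX34 and RALFL32 the particle difference was negative in both tissues, and the leaf value was the more negative.

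More negative in root were the water channels TIP2;1 at -1.66, PIP2;4 at -1.74, PIP1;5 at -1.24 and TIP1;1 at -0.98. The glucosinolate genes BCAT4, MAM3 and MAM1 had -1.23, -1.14 and -1.03. The sugar exporters SWEET12 and SWEET11 had -2.29 and -2.18. CYP710A4 had -2.60, FLA13 -2.37, XTH15 -1.51, COR47 -1.203 and ICL -2.72, the last with a positive particle difference in both tissues.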

How the results depend on the processing

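No paired analysis was possible because the tables hold no value per library, and for the same reason the fits with the replicate number as a block and without each library were not run. Taking out the covariance of the shared controls raised the root calls from 761 to 2118 (692 higher, 1426 lower with PS-NH2) and those between tissues from 358 to 1210 (819 higher, 391 lower in root). Forming the ratio across tables gave 1949 root calls (713 and 1236) and 879 between tissues (585 and 294). Of the 1188 root calls made only that way, 821 had a mean treated level below 10. A threshold of adjusted p at most 0.001 with a difference of at least 1 left 172 root calls (57 and 115). The same threshold left 151 genes for PS-NH2 against control (52 higher, 99 lower) of 1030, and 136 for PS-SO3H (80 and 56) of 1152. Between tissues, control fits within 0.1 left 170 higher, and a pseudocount of 10 gave 179 lower. Under the other settings the counts kept within 1.5 times. The share of root calls that were higher ran from 28.8 to 36.6 percent. Of the 162 called list members and named genes, none changed sign where tested under the covariance, control agreement (131 tested), level filter (158 tested) and pseudocount settings. Of those 162, 2 lost the call with the pseudocount, XTH13 and LTP4. Counts per list moved by over 1.5 times in 40 of 76 with the covariance out, 39 under the strict threshold, 23 across tables, 7 with control agreement, 2 with the level filter and 0 otherwise. The cause was not tested. Precision is limited by 2 libraries a group, and at low levels by shrunken fold changes. Control fits that were over 0.1 apart in 89 of the 761 called genes, and in 3507 of all 23506 genes, limit it too. Those 89 include genes at higher levels, such as EXT12 with fits of 1034 and 1332.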
